A study of Mus musculus with 34 samples.

Results

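The H3K9me3 profiles compared here came from mouse embryonic stem cells of D2 5-5, a DBA/2J (D2) line, and of B6 5-1, a C57BL/6J (B6) line. They comprised 2 libraries of D2 5-5 and 3 libraries of B6 5-1, which are 5 of the 34 samples of the study and were matched to the columns of the count table by the library names in the labels. All 248336 regions of the table were taken, and 86874 of them passed the low-count filter and were tested. The study profiled H3K9me3 and H3K27ac by chromatin immunoprecipitation and sequencing (ChIP-seq) in both strains and in 2 reciprocal congenic lines. The labels call the 5 libraries technical replicates, so the tests compare 1 line with 1 line, and the p-values measure only the spread between libraries of a line.

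Further libraries served for comparison. H3K9me3 in other lines came from B6 4-1 and B6 4-4 and from D2 2-9 and D2 203, with 1 library each. The congenic line B6-13D2 (2 H3K9me3 libraries) carries D2 sequence over part of chromosome 13 on a B6 background, and D2-13B6 (3 libraries) carries B6 sequence there on a D2 background. For D2-13B6, the marker named as the end of that segment is not the same in the series text as in the labels. H3K27ac in B6 5-1 and D2 5-5 came from 3 libraries each, of which the 1 pair per line with a chi-square below its degrees of freedom was summed to 1 sample, leaving n = 2. All groups were grown with serum, LIF, the MEK inhibitor PD0325901 and the GSK3 inhibitor CHIR99021, and the same Active Motif antibody was used for all H3K9me3 libraries.

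H3K9me3, trimethylation of lysine 9 of histone H3, marks heterochromatin. In embryonic stem cells it is placed on transposable elements and imprinting control regions by SETDB1, which is recruited through TRIM28 by zinc finger proteins with a KRAB domain, and on pericentromeric satellite repeats by the SUV39H enzymes. HP1 proteins bind the mark. H3K27ac, acetylation of lysine 27, marks active promoters and enhancers.

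The stretches that follow come from regions called different between the lines and from a region not called. They are the 300 central bases of tested regions, on the plus strand of GRCm38.p6 (the RefSeq copy of the C57BL/6J reference), in lower case with each CG dinucleotide, the target of DNA methylation, in capitals. CG reads the same on both strands. Of the 80387 tested regions at least 300 bases wide, 94.1% held at least 1 CG in their central 300 bases, and the median was 5. The first pair comes from the D2-higher and the B6-higher region with the smallest p, both near the distal end of chromosome Y. The D2-higher stretch held 11 CG, a number that 23.4% of regions reached, and the B6-higher stretch held 5, which 53.2% reached.

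chrY:90730030-90730329, higher in D2: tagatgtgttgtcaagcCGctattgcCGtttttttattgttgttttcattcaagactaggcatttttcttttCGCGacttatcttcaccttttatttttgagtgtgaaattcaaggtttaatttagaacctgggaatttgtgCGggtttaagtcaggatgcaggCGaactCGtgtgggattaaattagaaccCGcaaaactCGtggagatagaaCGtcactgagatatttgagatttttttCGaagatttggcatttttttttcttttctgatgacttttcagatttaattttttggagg
chrY:90801986-90802285, higher in B6: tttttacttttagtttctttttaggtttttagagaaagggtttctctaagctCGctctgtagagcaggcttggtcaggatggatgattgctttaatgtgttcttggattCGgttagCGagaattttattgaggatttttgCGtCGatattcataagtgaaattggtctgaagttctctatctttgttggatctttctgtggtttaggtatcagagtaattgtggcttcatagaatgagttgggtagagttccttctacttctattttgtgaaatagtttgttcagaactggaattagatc

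The next pair contrasts repeats that changed and did not pass the test. The stretch on chromosome 10 lies in the autosomal B6-higher region with the smallest p and is a tandem array of a short unit with 5 CG. The stretch on chromosome 2, with 10 CG, lies in the region with the highest level among those not called different.

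chr10:3113625-3113924, higher in B6: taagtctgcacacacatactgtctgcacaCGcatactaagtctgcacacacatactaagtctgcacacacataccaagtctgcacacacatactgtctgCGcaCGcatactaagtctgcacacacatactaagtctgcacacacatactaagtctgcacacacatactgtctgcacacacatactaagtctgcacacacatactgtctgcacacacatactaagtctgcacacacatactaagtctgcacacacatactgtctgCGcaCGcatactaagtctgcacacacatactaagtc
chr2:98666618-98666917, not called: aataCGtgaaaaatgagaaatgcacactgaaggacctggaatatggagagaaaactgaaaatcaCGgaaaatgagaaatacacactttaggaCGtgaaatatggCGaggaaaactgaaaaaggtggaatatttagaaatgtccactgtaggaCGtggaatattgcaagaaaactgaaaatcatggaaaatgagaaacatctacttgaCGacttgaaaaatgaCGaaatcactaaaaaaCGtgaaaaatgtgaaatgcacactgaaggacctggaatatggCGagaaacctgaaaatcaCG

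The last pair, chosen after the values were seen, comes from gene groups described further on. The Peg13 stretch, from an imprinted locus, held 20 CG, a number reached in 9.5% of regions. The central stretch at Peg3 and Usp29, the imprinted region with the smallest p, is not printed and held 7, reached in 38.8%. The stretch between T cell receptor V segments held 2, reached in 84.4%.

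chr15:72809787-72810086, Peg13, higher in B6: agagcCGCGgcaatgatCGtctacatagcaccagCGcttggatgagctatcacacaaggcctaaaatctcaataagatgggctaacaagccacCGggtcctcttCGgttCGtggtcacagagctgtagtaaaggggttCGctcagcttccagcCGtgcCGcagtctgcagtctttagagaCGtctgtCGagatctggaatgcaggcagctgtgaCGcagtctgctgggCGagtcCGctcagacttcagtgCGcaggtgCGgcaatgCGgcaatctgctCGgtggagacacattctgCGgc
chr14:53347972-53348271, T cell receptor V segments, higher in D2: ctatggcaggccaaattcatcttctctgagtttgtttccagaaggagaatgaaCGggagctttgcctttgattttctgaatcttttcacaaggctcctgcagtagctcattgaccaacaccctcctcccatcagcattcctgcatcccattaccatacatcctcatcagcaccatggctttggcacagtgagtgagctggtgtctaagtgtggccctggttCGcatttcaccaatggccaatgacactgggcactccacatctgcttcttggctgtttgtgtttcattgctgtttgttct

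The B6 5-1 libraries held 2012189, 1904669 and 1960274 counts in regions and the D2 5-5 libraries 1573625 and 1908928. Across the tested regions, which are not independent of each other, log2 levels correlated between B6 libraries at Pearson's r from 0.763 to 0.775, between the D2 libraries at 0.685, and between lines at 0.438 to 0.498. The spread between libraries was close to counting error in B6, where the chi-square divided by its degrees of freedom was 1.052 to 1.09 for the 3 pairs, and larger in D2, at 1.553. Among the congenic libraries, the first of D2-13B6 was the most distant from its group, at 2.455 and 2.467 against the other members. Both lines carried H3K27ac at embryonic stem cell genes: 9 of 10 markers reached 10 CPM (counts scaled to library size) within 1 kb of the start in either line, with sums of 733 to 825 CPM in B6 and 925 to 1016 in D2. None of 7 fibroblast markers, of which 4 had a region, and none of 8 markers of differentiated lineages, of which 7 had one, reached 10 CPM in either line, and the fibroblast sums were 9.07 to 11 CPM in B6 and 25.5 to 30.7 in D2. The part of such cells in the results was not tested.

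H3K9me3 differed between the lines in 9853 of the 86874 tested regions (11.3%, edgeR quasi-likelihood test, Benjamini-Hochberg adjusted p under 0.05). The mark was higher in D2 in 3979 regions (4.58% of those tested) and higher in B6 in 5874 (6.76%). The median absolute log2 fold change of the called regions was 1.55 in either direction, and the median signed change over all tested regions was 0.04. Changes of at least 1 on the log2 scale made up 8845 of the calls (10.2% of the regions tested). A change of at least 2 was found in 1144 D2-higher and 1537 B6-higher regions. The B6 and D2 libraries did not overlap in 9736 of the called regions (98.8%), compared with 41.3% of all tested regions. D2 had no counts at all in 17 of the B6-higher regions, while B6 had counts in each D2-higher region. With 2 D2 and 3 B6 libraries, the summed depth was lower in D2, so an absence of counts was easier to reach there. The share called rose with depth, from 5.34% of regions with a mean of 5 to 10 counts to 59.3% of those with 50 to 100, and was 51.1% of those with 100 or more.

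These numbers moved with the setting. DESeq2 called 3720 regions in the same libraries, and leaving out D2 replicate 1 or 2 left 6145 or 4917 calls. A separate fit of only the regions with a mean of at least 20 counts called 3873, of which 52.0% were D2-higher, against 40.4% of all calls in the full fit. In the full fit the same regions had more B6-higher calls, with 694 D2-higher and 1960 B6-higher at 20 to 50 counts, 259 and 368 at 50 to 100, and 62 and 125 at 100 or more. With scaling by library totals, 4875 regions were D2-higher and 4952 B6-higher (49.6% D2-higher), and the median change over all regions was 0.12 instead of 0.04, so the size of the excess of B6-higher calls depends on the scaling.

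The regions named first are those with the smallest p among well-covered regions in each direction, taking at most 1 per 5 Mb bin and 2 per chromosome so that they are spread over the genome. The D2-higher region with the smallest p was chrY:90725134-90735224, an intergenic region 19.3 kb from the gene Gm21860. Its level was 91.5, 73.8 and 94.3 CPM in the B6 libraries and 766 and 795 CPM in the D2 libraries. The groups lay far apart, with a log2 fold change of 3.17 (SE 0.12, adjusted p = 1.06e-51). H3K27ac counts were also higher there in D2, at 133 and 126 CPM against 3.71 and 4.14. The part of that shared rise in the H3K9me3 change was not tested.

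An intergenic region at chr9:123931516-123934505, 27.6 kb from the chemokine receptor gene Ccr1, had 17.4, 15.2 and 16.9 CPM in B6 and 245 and 237 CPM in D2. Its log2 fold change was 3.86 (SE 0.18, adjusted p = 5.59e-42), while H3K27ac did not pass the test there (0.54, SE 0.24, adjusted p = 0.0861). A region 14.3 kb from Hrh1, which encodes a histamine receptor, at chr6:114497598-114497853 had 9.44, 16.0 and 20.6 CPM in B6 and 180 and 150 CPM in D2 (log2 fold change 3.42, SE 0.21, adjusted p = 1.82e-31), and H3K27ac was also higher in D2 (2.76, SE 0.36, adjusted p = 4.35e-08). In both places each D2 library was several times above the highest B6 library, and both rose in the other lines as well, by 6.01 and 4.52.

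Another D2-higher region of this rule was an intronic region of the genes Gm48165, Gm48166 and Gm48170 at chr13:65619001-65619178, which had 1.45, 1.52 and 3.68 CPM in B6 and 89.5 and 135 CPM in D2 (log2 fold change 5.61, SE 0.31, adjusted p = 9.99e-35). It lies in a block of chromosome 13 described further on. The region between T cell receptor V segments at chr14:53347856-53348386 had 2 counts over the 3 B6 libraries and 100 over the 2 D2 libraries. After scaling for depth, that is a ratio of 84.1, with an exact 95% interval of 22.7 to 704 that covers counting error only.

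At chr1:24611449-24616261, over exons of a cluster of predicted genes with Gm10222 and Gm28437, levels were 26.2, 18.3 and 19.9 CPM in B6 and 226 and 202 CPM in D2 (log2 fold change 3.31, SE 0.23, adjusted p = 1.55e-26). This region went the other way in the other lines, at 48.6 and 67.4 CPM in B6 4-1 and 4-4 and 17.3 and 18.8 in D2 2-9 and 203 (log2 fold change -1.65, SE 0.28, adjusted p = 0.000244). In that set, which was normalised separately, the single libraries of B6 5-1 and D2 5-5 also had the opposite order, with 66.7 and 24.3 CPM. The 3 libraries of D2-13B6 had 594, 140 and 211 CPM. H3K27ac also differed there between the samples of B6 5-1, at 16.3 and 54.8 CPM, beside 23.8 and 32.3 in D2 5-5. Levels at this region thus varied between libraries of the same line, and the source of these counts was not tested.

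Of the 6 B6-higher regions named by this rule, 3 lay near the ends of the sex chromosomes. An intron of Gm47283 at chrY:90798082-90806188 had 1017, 988 and 952 CPM in B6 and 187 and 192 CPM in D2, a log2 fold change of -2.38 (SE 0.12, adjusted p = 5.03e-40). An intron of Mid1, a gene that spans the boundary of the pseudoautosomal region in C57BL/6J mice, had 315, 301 and 304 CPM in B6 and 26.0 and 27.9 CPM in D2 at chrX:169993485-169994919 (log2 fold change -3.50, SE 0.19, adjusted p = 6.7e-36). In the other lines that Mid1 region did not pass the test, at 106 and 62.0 CPM in B6 and 109 and 102 in D2 (log2 fold change 0.35, SE 0.23, adjusted p = 0.301). H3K27ac counts were lower in D2 at both places, by -3.45 and -2.22 on the log2 scale. An intron of Gm21887 at chrX:170011737-170011993 had 95.2, 80.6 and 84.7 CPM in B6 and 1.79 and 1.55 CPM in D2 (log2 fold change -5.63, SE 0.39, adjusted p = 1.45e-26). Sequence shared by X and Y can share reads, so the assignment of these counts to 1 chromosome is uncertain.

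On the autosomes, the tandem array at chr10:3113482-3114066, 142 kb from H60c, had 216, 180 and 209 CPM in B6 and 7.16 and 10.1 CPM in D2. The log2 fold change was -4.52 (SE 0.25, adjusted p = 5.39e-35), and 97.1% of the region is repeat-masked. A region 2.78 kb from Tmem125 at chr4:118546827-118549277 had 404, 415 and 405 CPM in B6 and 101 and 109 in D2 (log2 fold change -1.96, SE 0.14, adjusted p = 3.31e-26). An intron of Tmem267 at chr13:119601161-119603466 had 383, 346 and 340 CPM in B6 and 96.7 and 85.3 in D2 (log2 fold change -1.97, SE 0.14, adjusted p = 5.39e-25). In these 3 regions the gap between the lines exceeded the whole spread within either line. The other lines changed the same way, by -5.76, -2.19 and -1.19. H3K27ac was also called lower in D2 at all 3, by -3.61 (SE 0.66), -2.24 (SE 0.32) and -4.93 (SE 0.16), and the part of that shared fall was not tested.

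**Figure D1:**
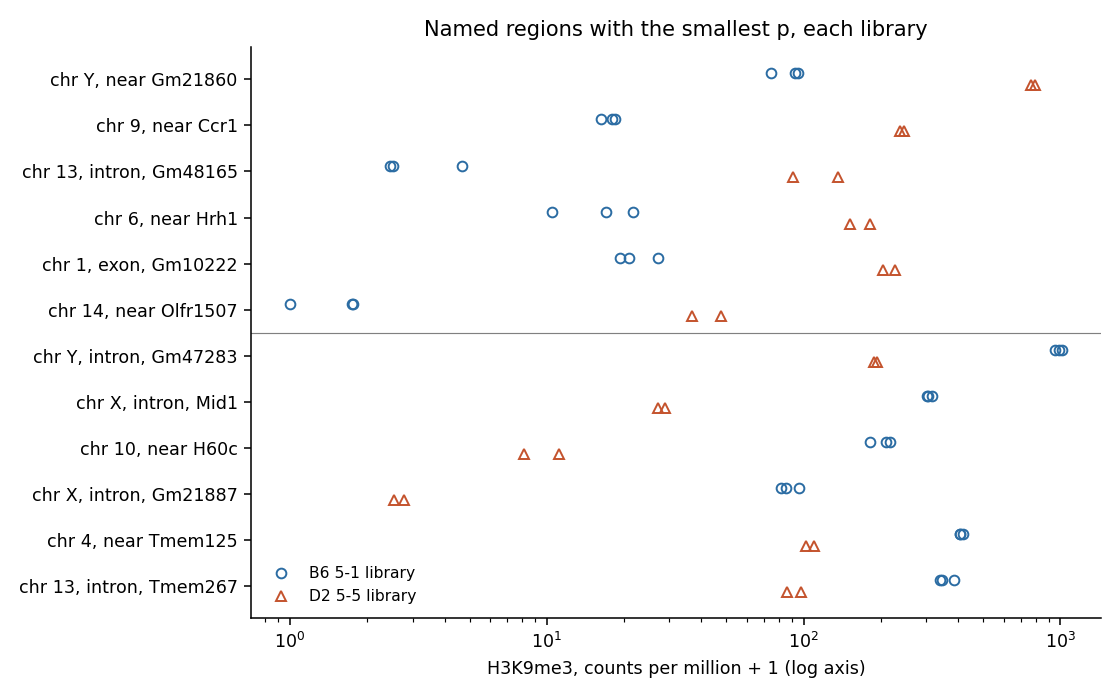
H3K9me3 level, in CPM + 1 on a log axis, of 12 well-covered regions, those with the smallest p when at most 1 per 5 Mb bin and 2 per chromosome are taken, with one marker per library of B6 5-1 (3 libraries) and D2 5-5 (2 libraries). The 6 D2-higher and the 6 B6-higher regions are shown together, and the rule that chose them took only regions in which the libraries of the lines do not overlap.

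The 2 sets of called regions lay in different kinds of sequence. Of the B6-higher regions, 59.8% were intergenic, against 42.1% of the D2-higher ones and 45.5% of all tested regions. Promoters, taken as regions within 1 kb of a gene start, made up 12.1% of the D2-higher regions, 3.32% of the B6-higher ones and 11.9% of all tested. The 483 D2-higher promoter calls fell to 169, 236 and 296 without D2 replicate 2, D2 replicate 1 and B6 replicate 1, to 119 with DESeq2 and to 211 without a filter, where the D2-higher calls of all kinds were 2036, 2211, 2814, 1473 and 2562. Counted by place, 8.89% of intergenic regions were higher in B6 and 4.24% in D2, while 1.88% of promoter regions were higher in B6 and 4.66% in D2. The median log2 fold change was -0.11 between genes, 0.05 in introns, 0.22 at promoters and 0.24 at exons.

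Repeat content separated the sets as well. The median B6-higher region was 48.0% repeat-masked in the reference, against 17.8% for D2-higher regions and 18.9% for regions not called. Where 50 to 75% of a region was masked, 13.0% of regions were higher in B6 and 3.92% in D2, and the median log2 fold change was -0.29. Regions at least 50% masked took 33.8, 32.2 and 32.0% of all counts in the B6 libraries and 27.8 and 25.6% in the D2 libraries, which do not overlap. In the other lines the shares were 43.2 and 38.5% in B6 and 33.9 and 38.6% in D2, which overlap. The submitters' processing notes name mm10, a C57BL/6J genome. Of the B6-higher regions, 82 (1.4%) had at most 3 H3K27ac counts in D2 with at least 20 in B6. Of the D2-higher regions, 7 (0.176%) had the reverse. Such called regions thus had almost no H3K27ac reads in the line with less H3K9me3. Among regions not called, 60 (0.0779%) and 5 (0.00649%) had these patterns, so both made up larger shares of the called regions. The part of sequence differences from the reference in these results was not tested.

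Calls were unevenly spread over the chromosomes. Chromosome 13 had the highest share of tested regions called among the autosomes, at 17.5%, followed by chromosome 12 at 16.5% and chromosome 14 at 15.5%, and chromosome 11 had the lowest, at 8.97%. D2-higher regions were 63.2% of the calls on chromosome 12 and 59.5% on chromosome 13, but 25.3% on chromosome 4. On chromosome 13, 299 of the 434 D2-higher calls lay between 65 and 67 Mb. On chromosome 4, 137, 60 and 33 of the 571 B6-higher calls lay in adjacent 1 Mb windows from 147, 146 and 145 Mb. The shares of these chromosomes thus rest in part on short blocks. Chromosome Y had 99 tested regions, 14 of them D2-higher and 8 B6-higher. With gaps of at most 5 kb allowed, 2724 D2-higher and 4228 B6-higher calls stood alone, and the other 31.5% and 28.0% lay in runs of at least 2, the largest with 18 and 29 regions.

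**Figure D2:**
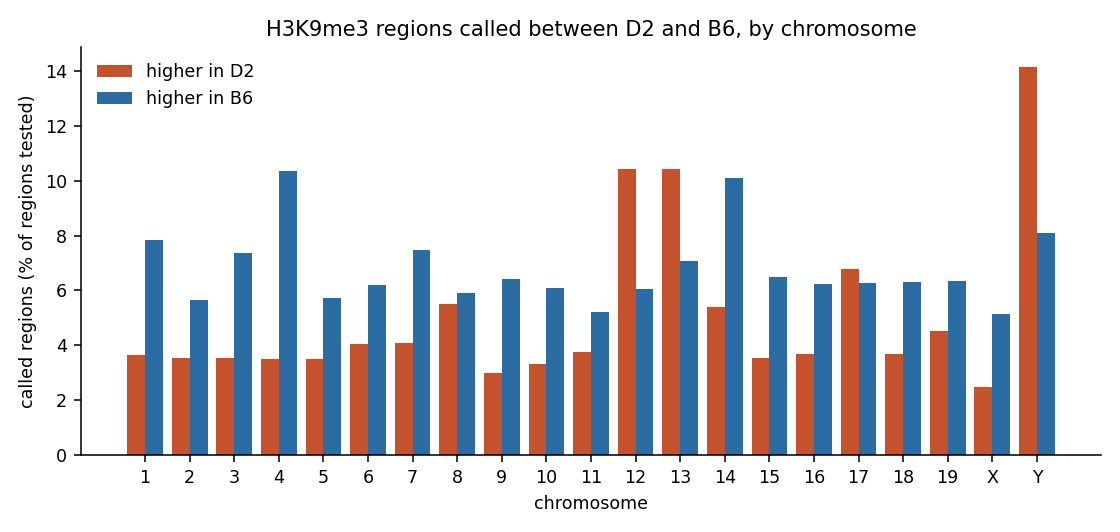
Share of tested regions called higher in D2 5-5 or higher in B6 5-1, in percent of the regions tested on each chromosome. Chromosomes 12, 13, 17 and Y have more D2-higher than B6-higher calls, and chromosome 4 has 571 B6-higher calls against 193 D2-higher ones.

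The windows of 1 Mb with the most calls held gene clusters. Among the D2-higher calls, the windows from 65 to 66 Mb and from 66 to 67 Mb of chromosome 13, with Zfp369, Nlrp4f and Spata31d1c in the first, had 137 of 147 and 162 of 169 tested regions called. Their median log2 fold changes were 3.53 and 2.91 over all tested regions, and H3K27ac had medians of 4.76 and 4.46 over the called ones. The T cell receptor alpha window from 53 to 54 Mb of chromosome 14 had 71 of 87 regions higher in D2, with an H3K27ac median of 2.76. A window from 6 to 7 Mb of chromosome 17 with Dynlt1 copies, Tmem181a and Rsph3b had 73 of 131, with an H3K27ac median of 2.34. A window with defensin genes from 20 to 21 Mb of chromosome 8 had 88 of 148 regions higher in D2 by a smaller amount (median 0.68 over the called regions), and an H3K27ac median of 0.11. In the first 4 windows the counts of both marks were thus higher in D2, and the part of a gain shared by the marks was not tested.

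The B6-higher windows were led by the zinc finger cluster near the distal end of chromosome 4. The window from 147 to 148 Mb, with Zfp991, Zfp988, Zfp978 and Rex2, had 137 of 190 tested regions called higher in B6 and none called higher in D2. The adjacent windows from 146 and 145 Mb, with Zfp987, Zfp600 and Zfp990, had 60 of 105 and 33 of 108. H3K27ac medians at these called regions were -0.88, -0.64 and -0.40, all smaller in size than the H3K9me3 medians of -1.39, -1.27 and -1.10. The remaining windows were from 104 to 105 Mb of chromosome 5, with Abcg3 and Zfp951 (31 of 82), and from 3 to 4 Mb of chromosome 9 (31 of 69), where the median called region was 95% repeat-masked.

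The regions with the highest levels of all were in that chromosome 9 window. At chr9:3024328-3024722, over Gm10718 and 95.2% repeat-masked, levels were 5611, 5328 and 5249 CPM in B6 and 3594 and 3467 CPM in D2. The change was small in fold but outside the spread, with a log2 fold change of -0.61 (SE 0.06, adjusted p = 5.39e-15). The 2 next highest regions, beside it, changed by -0.68 and -0.72. In contrast, the region over Gm10800 whose sequence is printed above, chr2:98666111-98667424, had 1666, 1706 and 1594 CPM in B6 and 1664 and 1490 CPM in D2 (log2 fold change -0.07, SE 0.08, adjusted p = 0.643). The groups overlapped there, while in the other lines the region was lower in D2 by -0.51 (SE 0.11, adjusted p = 0.00275). A region of 15743 bases over Sfi1 at chr11:3122420-3138162 also did not pass the test (log2 fold change -0.06, SE 0.08, adjusted p = 0.715). Repeats of nearly identical sequence can share reads, so the values of single copies are uncertain.

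Among regions at promoters, the 5 D2-higher ones with the smallest p lay at Ube2s, Rsph3b, Mon1b, Hspbp1 and Hdhd3. Ube2s encodes a ubiquitin-conjugating enzyme that works with the anaphase-promoting complex, Hspbp1 a nucleotide exchange factor for Hsp70, and Rsph3b a radial spoke protein of cilia. The region over Ube2s, chr7:4811015-4813933, had 1.45, 3.04 and 9.58 CPM in B6 and 39.4 and 39.5 in D2 (log2 fold change 3.05, SE 0.34, adjusted p = 2.3e-13). H3K27ac was lower in D2 over it, by -0.65 (SE 0.13, adjusted p = 0.000147). The region over Hspbp1, chr7:4683889-4685666, had 3.63, 3.04 and 2.95 CPM in B6 and 26.0 and 24.8 in D2 (log2 fold change 2.94, SE 0.39, adjusted p = 6.86e-10), with H3K27ac again lower in D2 (-0.41, SE 0.15, adjusted p = 0.0352). Rsph3b and Mon1b changed by 2.81 and 2.51 with no H3K27ac call, and Hdhd3 by 2.54 with higher H3K27ac (1.22, SE 0.21). All 5 were also called higher in D2 in the other lines.

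The 5 B6-higher promoter regions with the smallest p lay at Sfi1, Cd59a, H2-T23, Coil with Elobl, and Plekhm3. The start of Sfi1, a centrosomal gene, had 1843, 1719 and 1677 CPM in B6 and 764 and 860 in D2 at chr11:3190813-3198662 (log2 fold change -1.10, SE 0.09, adjusted p = 2.28e-23). At Cd59a, which encodes an inhibitor of complement, chr2:104095512-104097708 had 56.7, 52.5 and 61.2 CPM in B6 and 8.06 and 6.98 in D2 (log2 fold change -2.91, SE 0.31, adjusted p = 4.92e-14). At Plekhm3, chr1:64956161-64959984 had 68.3, 64.7 and 53.0 CPM in B6 and 12.5 and 14.0 in D2 (log2 fold change -2.21, SE 0.27, adjusted p = 1.46e-11). H3K27ac moved in either direction at these starts. It was higher in D2 at Plekhm3, at 99.3 and 90.1 CPM against 17.8 and 18.1, and lower in D2 at Coil, the gene of the Cajal body protein coilin, at 46.3 and 44.4 CPM against 171 and 197.

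Gene families, many of which vary between mouse strains, and groups of regulators were examined as lists of regions that overlap a member or lie within 5 kb of it. Over all 20 lists together, 205 of 2591 tested regions were D2-higher and 328 B6-higher, or 20.6% called against 11.3% of all regions. The median log2 fold change of each list is set against 0.04 for all tested regions.

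Zinc finger genes of the Zfp series, many of which encode DNA-binding repressors, had 960 tested regions with a median of -0.07. Of these, 173 were B6-higher and 46 D2-higher. The share called was 22.8%, against 11.3% of all regions (6.76% B6-higher and 4.58% D2-higher). Many of the B6-higher ones lay in the chromosome 4 cluster described above, such as 14 at Zfp978, 10 at Zfp988 and 9 at Zfp986. The D2-higher count fell to 18, 25 and 28 without D2 replicate 2, D2 replicate 1 and B6 replicate 1, and to 14 with DESeq2, while the B6-higher count was 125 to 167 with 1 library left out and 121 with DESeq2. The B6-higher ones had a median log2 fold change of -1.42. Of the 168 tested in the other lines, 136 were called the same way there and none the opposite way. Among all B6-higher regions tested there, 54.6% were called the same way. At a coding exon of Zfp936, chr7:43189936-43191729 had 101, 105 and 82.5 CPM in B6 and 20.6 and 14.0 in D2 (log2 fold change -2.49, SE 0.25, adjusted p = 3.1e-16). Near Zfp988, chr4:147335113-147336348 had 201, 192 and 207 CPM in B6 and 49.2 and 73.7 in D2 (log2 fold change -1.69, SE 0.17, adjusted p = 1.24e-15). H3K27ac, called in 28.1% of all regions tested for it (14.7% higher and 13.4% lower in D2), was called lower in D2 at 102 and higher at 18 of the 170 B6-higher regions tested for it. In the other direction, the D2-higher regions with the smallest p were intronic in Zfp97 on chromosome 17, with log2 fold changes of 4.12 (SE 0.54) and 3.61 (SE 0.49).

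Chemosensory receptor genes, which act in the nose, had more B6-higher than D2-higher calls. Olfactory receptors had 44 of 333 regions higher in B6 and 5 higher in D2 (median -0.40), and vomeronasal receptors had 17 of 156 and 2 (median -0.32). Repeats were frequent, with a median of 74.3% masked for the B6-higher olfactory regions. The smallest p belonged to chr7:140679169-140680784, 0.589 kb from Olfr539, with 47.9, 62.4 and 53.0 CPM in B6 and 7.16 and 13.2 in D2 (log2 fold change -2.38, SE 0.29, adjusted p = 1.45e-11). The olfactory B6-higher count fell to 21 without D2 replicate 2, to 16 with DESeq2 and to 5 when a region had to overlap a gene body. The vomeronasal one fell to 7 without D2 replicate 2 or B6 replicate 1, to 9 without D2 replicate 1, to 3 with DESeq2 and to 7 by gene body, and the total shares called, 14.7% and 12.2%, were close to the 11.3% of all regions.

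Antigen receptor segments, which are rearranged only in lymphocytes, had more D2-higher calls. Of 98 regions at T cell receptor segments, 67 were D2-higher and 2 B6-higher (median of all 1.85), and of 122 at immunoglobulin segments, 39 were D2-higher and 12 B6-higher (median 0.32). The immunoglobulin counts fell to 20 and 5 without D2 replicate 2, to 24 and 3 with DESeq2 and to 2 and 2 among regions with a mean of at least 20 counts, and the B6-higher count was 7 without B6 replicate 1. The T cell receptor D2-higher count was 52 to 63 with 1 library left out, 57 with DESeq2 and 23 among the 26 regions with a mean of at least 20 counts. The median log2 fold changes of the D2-higher regions were 2.40 and 2.54. H3K27ac counts were higher in D2 at 63 of 67 and 33 of 39 of these regions and lower at none. In the other lines, 25 and 19 of them were tested and 17 and 12 were called D2-higher, with 1 T cell receptor region called the opposite way. Of all D2-higher regions tested there, 72.1% were called the same way.

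Near Trav8n-2, chr14:53344017-53344226 had 1.45, 0.761 and 0.737 CPM in B6 and 34.0 and 47.3 in D2 (log2 fold change 5.25, SE 0.45, adjusted p = 2.9e-20). Near Ighv1-22, chr12:114748823-114749039 had 1.45, 1.52 and 0.737 CPM in B6 and 14.3 and 31.0 in D2 (log2 fold change 4.13, SE 0.51, adjusted p = 2.4e-11). Among the 12 B6-higher immunoglobulin regions, the one with the smallest p was chr12:114963346-114965351 over Ighv1-44, with 53.0, 46.4 and 48.6 CPM in B6 and 0.895 and 2.33 in D2 (log2 fold change -4.82, SE 0.44, adjusted p = 1.47e-18). The segments resemble each other, so reads may be split among copies, and the part of that in these counts was not tested.

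The Skint genes, a tandem family related to butyrophilins whose first member selects skin gamma delta T cells, had the highest share called of the lists. Of 25 tested regions, 19 (76.0%) were higher in B6 and none in D2. The count was 16 to 19 with 1 library left out, 12 with DESeq2 and 3 of 3 among regions with a mean of at least 20 counts. Within Skint4, chr4:112159399-112161519 had 67.6, 59.3 and 52.3 CPM in B6 and 1.79 and 3.88 in D2 (log2 fold change -4.32, SE 0.38, adjusted p = 3.63e-19). Another Skint4 region, chr4:112089965-112090728, had 20.3, 15.2 and 17.7 CPM in B6 and no counts in D2, so it was at least 14.3-fold lower in D2, with the floor set at 3 counts over the group. The median log2 fold change of the 19 was -3.56 as fitted and -3.16 with the 3 regions at 0 set to their bound. H3K27ac was called lower in D2 at 15 of the 16 regions tested for it, with a median of -4.72, and the other lines called 10 of 16 the same way.

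Genes of the H2 series of the major histocompatibility complex, most of which act in antigen presentation, were called in both directions, 15 of 59 regions being D2-higher and 11 B6-higher. The share called was 44.1%, against 11.3% of all regions (4.58% D2-higher and 6.76% B6-higher). The D2-higher count fell to 7 without D2 replicate 2 and to 8 with DESeq2, and the B6-higher count was 9 to 11 with 1 library left out and 8 with DESeq2. The B6-higher ones lay mainly at H2-T24, H2-T23 and H2-Eb1 and the D2-higher ones mainly at H2-Q1, H2-Q6, H2-Q2 and H2-T3. Over H2-T23, which encodes the non-classical molecule Qa-1, chr17:36031254-36032986 had 45.8, 51.0 and 58.9 CPM in B6 and 7.16 and 7.75 in D2 (log2 fold change -2.78, SE 0.31, adjusted p = 3.21e-13). H3K27ac was higher in D2 there, at 7.61 and 6.59 CPM against 2.26 and 2.24. At H2-Q1, chr17:35325052-35325593 had 2.18, 1.52 and 0.737 CPM in B6 and 11.6 and 14.7 in D2 (log2 fold change 3.08, SE 0.54, adjusted p = 3.86e-06). All 8 of the B6-higher regions tested in the other lines were called the same way there, and H3K27ac was called higher in D2 at 7 of 10 and lower at none. Of the D2-higher regions, 3 of 7 were called the same way in the other lines and none the opposite way, and H3K27ac was called higher in D2 at 5 of 15 and lower at none. Among all B6-higher regions, 54.6% of those tested in the other lines were called the same way, and 24.8% had H3K27ac called higher in D2. Among all D2-higher regions these shares were 72.1% and 36.4%.

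The other families had 5 or fewer calls in each direction. Clustered protocadherins had 5 of 102 regions called, cytochrome P450 genes of families 2 to 4 had 3 of 86 and histone genes had 2 of 41, each below the 11.3% of all regions. Serpins had 4 of 44 regions higher in D2 and 5 higher in B6, defensins 2 and 3 of 31, Nlrp and Naip genes 1 and 5 of 43, natural killer receptor genes 1 and 1 of 15, and Obox genes none of 3. The shares called were 20.5% for serpins, 16.1% for defensins, 14.0% for Nlrp and Naip genes and 13.3% for natural killer receptor genes, above the 11.3% of all regions but over few regions each. With DESeq2 these 4 families had 1, 0, 0 and 0 D2-higher and 1, 0, 2 and 0 B6-higher regions. The lowest counts with 1 library left out were 1, 1, 0 and 0 D2-higher and 2, 0, 2 and 0 B6-higher. The D2-higher defensin count instead rose to 6 with library totals, to 7 in the fit of regions with a mean of at least 20 counts and to 8 with only the 5 libraries, beside B6-higher counts of 2, 1 and 3. In Serpinb2, a protease inhibitor gene, chr1:107526571-107527074 had 17.4, 13.7 and 11.1 CPM in B6 and 0.0 and 0.775 in D2, a ratio of 33.9 with an exact 95% interval of 5.84 to 1362. That ratio rests on 1 count in D2.

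**Figure D3:**
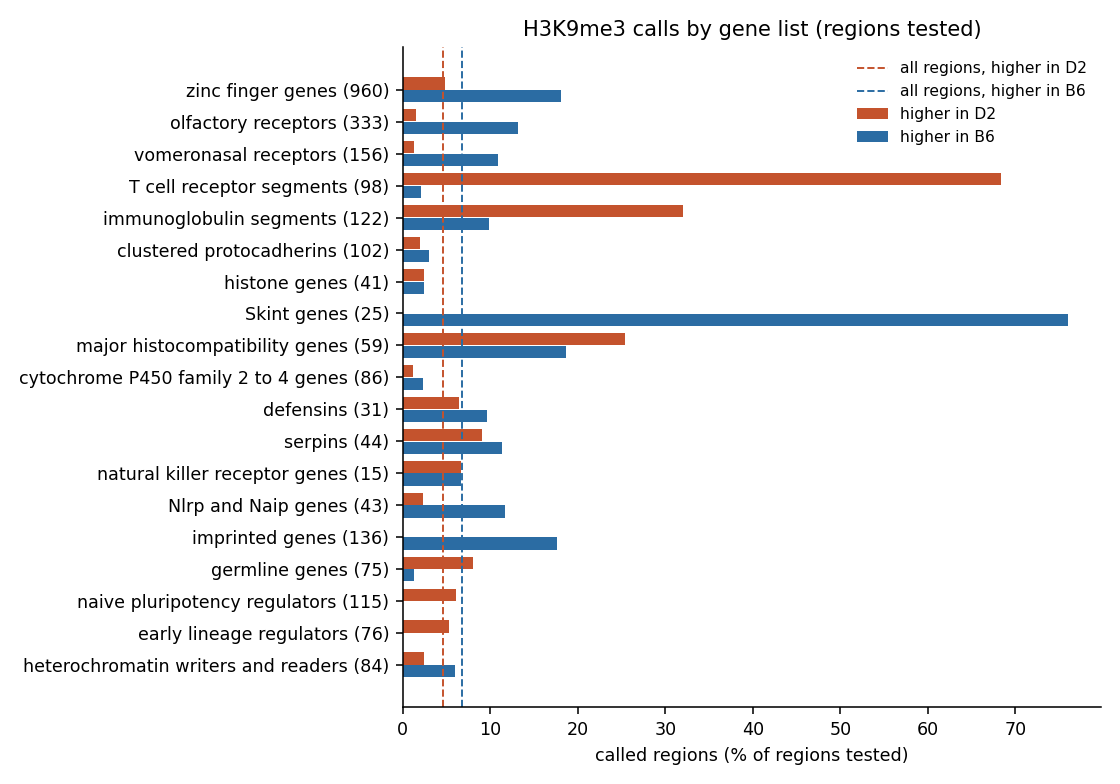
Percent of tested regions called higher in D2 5-5 or in B6 5-1 for each gene list with at least 10 tested regions, with dashed lines for all tested regions (4.58% and 6.76%). T cell receptor and immunoglobulin segments have the highest D2-higher shares (67 of 98 and 39 of 122 regions), and Skint genes the highest B6-higher share (19 of 25).

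Imprinted genes are expressed from 1 parental copy, and their control regions carry DNA methylation and H3K9me3 on 1 of the copies. Of 136 tested regions at the imprinted genes listed, 24 were higher in B6 and none higher in D2, or 17.6% called against 11.3% of all regions (6.76% B6-higher and 4.58% D2-higher), and the median log2 fold change was -1.85 over the 24 and -0.16 over all 136. They lay at Peg3, Mest, Peg13, Impact, Snrpn, Kcnq1ot1, Mcts2, Plagl1, Igf2r with Airn, Nnat, Zrsr1, Gnas, Sgce and Zim1, and at H19 and Meg3, whose control regions are methylated on the paternal copy. In all 24 regions the B6 and D2 libraries did not overlap, as in 98.8% of all called regions.

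At Peg3 and Usp29, chr7:6726759-6731328 had 73.4, 70.8 and 50.8 CPM in B6 and 16.1 and 18.6 in D2 (log2 fold change -1.89, SE 0.26, adjusted p = 1.17e-09). Peg3 encodes a zinc finger protein expressed from the paternal copy. At Mest, a hydrolase gene, chr6:30736141-30740002 had 79.2, 56.3 and 53.8 CPM in B6 and 16.1 and 19.4 in D2 (log2 fold change -1.82, SE 0.25, adjusted p = 3.41e-09). At Peg13, a non-coding RNA within Trappc9, chr15:72808752-72811121 had 38.5, 41.1 and 36.8 CPM in B6 and 8.06 and 10.1 in D2 (log2 fold change -2.08, SE 0.32, adjusted p = 8.66e-08). Each had counts in every D2 library, so the level was lower and not at 0.

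At Kcnq1ot1, the antisense transcript that silences the Kcnq1 cluster, chr7:143295040-143297376 had 32.0, 32.7 and 36.8 CPM in B6 and 8.06 and 10.1 in D2 (log2 fold change -1.88, SE 0.32, adjusted p = 1.52e-06). The H19 region at chr7:142580024-142582212 changed less, from 34.9, 41.8 and 34.6 CPM to 25.1 and 16.3 (log2 fold change -0.86, SE 0.26, adjusted p = 0.0184). In a Plagl1 intron, chr10:13087069-13087654 had 8.72, 11.4 and 5.89 CPM in B6 and no counts in D2, at least 6.94-fold lower against a floor of 3 counts over the group. H3K27ac was called higher in D2 at 15 of the 22 regions tested for it and lower at none (median 1.00 on the log2 scale). Of all B6-higher regions tested for it, 24.8% had H3K27ac called higher in D2 and 29.2% lower. At B6-higher promoters these shares were 46.6% and 13.5%. The highest H3K27ac changes of the 24 were 2.17 at a Meg3 exon and 2.16 at Airn, beside H3K9me3 changes of -1.33 and -0.94.

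The 24 regions were then read in other libraries. In the other lines, 19 of the 23 regions tested were called lower in D2 and none higher, with a median of -2.15. Over the whole list, 32 of 77 regions tested there were B6-higher and 2 D2-higher. The congenic comparison, D2-13B6 minus B6-13D2, called 14 of the 24 lower on the D2 background and none higher, with a median of -1.01, and the fitted change was slightly positive at regions of Nnat (0.29), Zrsr1 (0.09) and Peg3 (0.07). Of all B6-higher regions, 54.6% of those tested in the other lines and 59.4% in the congenic comparison were called the same way. A test of the difference between the parental and congenic contrasts called 2 of the 24, at Mcts2 (adjusted p = 0.0381) and Nnat (adjusted p = 0.0291). The number of B6-higher regions ranged from 13 to 27 over the alternative settings. The absence of D2-higher calls did not hold under all of them, since scaling by library totals called 3, testing only regions with a mean of at least 20 counts called 5, fitting only the 5 libraries called 2, and leaving out any 1 of the B6 libraries called 1. The lowest B6-higher count with 1 library left out was 15, without D2 replicate 2.

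**Figure D4:**
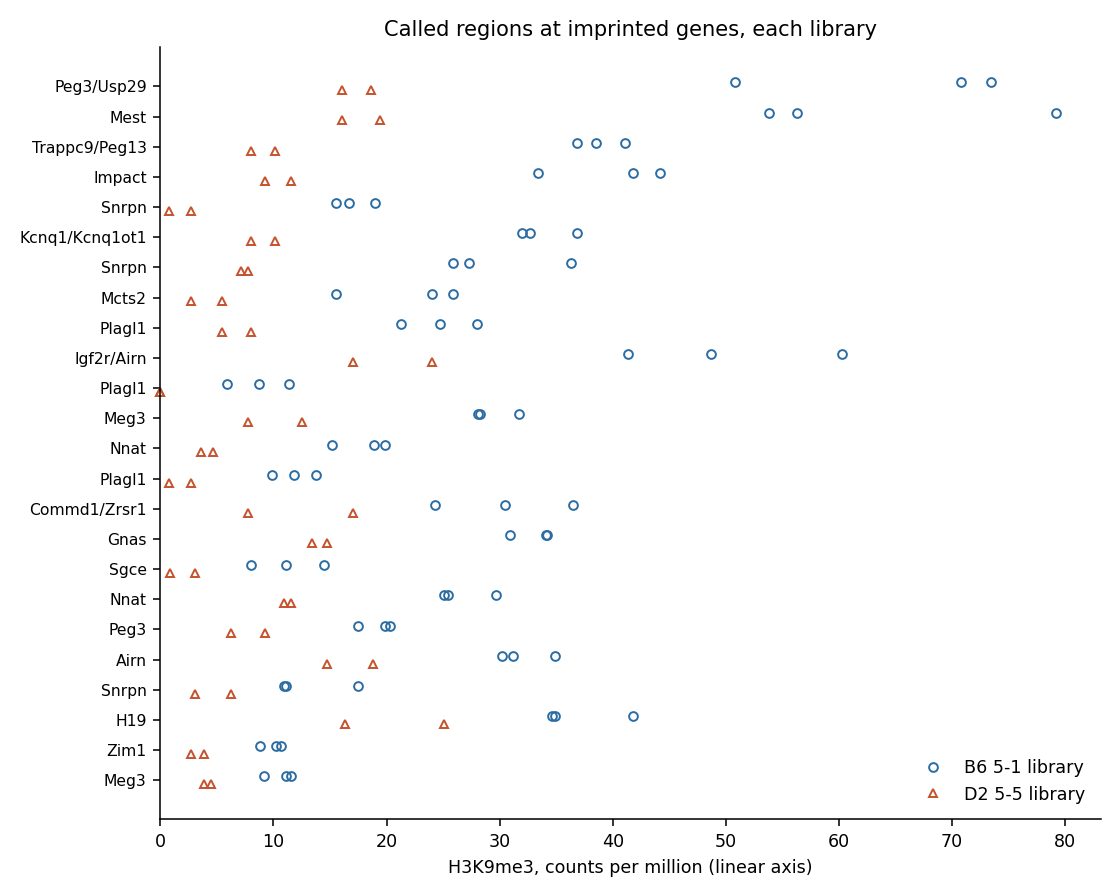
H3K9me3 level in CPM, on a linear axis, of the 24 called regions at imprinted genes, ordered by p, with one marker per library of B6 5-1 and D2 5-5. In each row the D2 libraries lie below the B6 libraries, and the lines did not overlap in 98.8% of all called regions.

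Regulators of development had few calls. Germline genes, which embryonic stem cells keep largely silent, had 6 D2-higher regions and 1 B6-higher region among 75. At Sycp1, which encodes a protein of the synaptonemal complex, chr3:102865493-102866691 had 7.26, 8.37 and 8.84 CPM in B6 and 30.4 and 22.5 in D2 (log2 fold change 1.68, SE 0.32, adjusted p = 3.12e-05). Dazl, which encodes a germ cell RNA-binding protein, had 21.8, 14.5 and 17.7 CPM in B6 and 37.6 and 34.9 in D2 at its start (log2 fold change 1.00, SE 0.27, adjusted p = 0.00574). The B6-higher one was Tuba3a, a tubulin gene (-1.82, SE 0.38, adjusted p = 0.000131).

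Regulators of the naive pluripotent state had 7 of 115 regions higher in D2, at Stat3, Dppa3, Tbx3, Esrrb, Sall4 and Sox2, and none higher in B6. In the other lines, 4 of 43 regions of this list were higher in D2 and 4 in B6. The Stat3 region, chr11:100893085-100893977, had 2.91, 6.85 and 2.21 CPM in B6 and 17.0 and 15.5 in D2 (log2 fold change 2.01, SE 0.43, adjusted p = 0.000187). Stat3 encodes the transcription factor downstream of LIF. The shares called in the germline and naive lists, 9.33% and 6.09%, were below the 11.3% of all regions. The D2-higher shares of both lists were above the 4.58% of all regions. Either list had between 1 and 10 D2-higher calls over the alternative settings.

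Early lineage regulators had 4 of 76 regions higher in D2, among them regions at Pax6, Gata4 and Gsc, a count that ranged from 0 (without D2 replicate 1) to 7 over the alternative settings. The Gata4 region lies at the start of the neighbouring gene Neil2. An intron of Pax6, a regulator of eye and forebrain, had 13.1, 15.2 and 14.0 CPM in B6 and 42.1 and 27.9 in D2 (log2 fold change 1.29, SE 0.28, adjusted p = 0.000229). Genes of the heterochromatin machinery itself had 5 of 84 regions higher in B6 and 2 higher in D2. These counts fell to 1 and 0 without D2 replicate 2 and to 2 and 0 with DESeq2, and the D2-higher count was also 0 without D2 replicate 1 or B6 replicate 1 and 1 without B6 replicate 3. Near Cbx3, which encodes the H3K9me3 reader HP1 gamma, chr6:51485226-51486521 had 36.3, 36.5 and 28.7 CPM in B6 and 13.4 and 7.75 in D2 (log2 fold change -1.69, SE 0.31, adjusted p = 1.34e-05). The others were Smarcad1, Smchd1, Atf7ip and Pphln1, of which Atf7ip encodes a partner of SETDB1 and Pphln1 a subunit of the HUSH complex, and Daxx and Dnmt1 were D2-higher. The shares called in the early lineage and heterochromatin lists, 5.26% and 8.33%, were below that of all regions. The early lineage calls were all D2-higher, beside a D2-higher share of 4.58% for all regions.

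The difference between D2 5-5 and B6 5-1 was set beside that between other lines of the same strains, which shares no library with it. In that comparison 24.7% of 44711 tested regions were called, 12.6% higher in D2 and 12.2% higher in B6. Of the 3979 D2-higher regions, 2457 were tested in the other lines and 1772 of these (72.1%) were called D2-higher there, against 7 called B6-higher. Of the 5874 B6-higher regions, 5306 were tested and 2895 (54.6%) were called B6-higher, against 17 called D2-higher. For regions with a change of at least 2 on the log2 scale, 89.8% and 76.1% were called the same way. The share called the same way among the B6-higher regions was 76.8% at promoters and 49.8% between genes, and among the D2-higher regions 69.4% and 70.9%.

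Across the 40608 regions tested in both comparisons, the log2 fold changes had Pearson's r of 0.719 and Spearman's rho of 0.673, a description over regions that are not independent and share the reference genome and the region list. When D2 2-9 or D2 203 was left out, edgeR called none of the regions in the other lines (10026 or 8764 had an unadjusted p under 0.05, and DESeq2, run on all 4 lines, called 3328). The lone D2 line was then assumed to vary like the B6 lines, so these shares rest on both D2 lines. Scaling by library totals raised the D2-higher share of calls in the other lines from 50.8% to 61.0% and their median change over all regions from 0.01 to 0.15.

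In all, 24 regions called here were called the opposite way in the other lines. Besides the predicted genes on chromosome 1, the ones with the smallest p lay in Mid1 on chromosome X. The region chrX:169985975-169986300 had 102, 86.7 and 91.4 CPM in B6 5-1 and 22.4 and 15.5 in D2 5-5, a log2 fold change of -2.31 (SE 0.24, adjusted p = 4.7e-15). In the other lines the same region had 25.4 and 6.53 CPM in B6 4-1 and 4-4 and 46.1 and 39.1 in D2 2-9 and 203, a log2 fold change of 1.42 (SE 0.37, adjusted p = 0.00821). At a Mid1 intron, chrX:169958850-169960043, the comparisons gave -2.88 (SE 0.31) and 3.95 (SE 0.64), and the other D2 lines themselves differed there, at 25.5 CPM in D2 2-9 and 106 in D2 203.

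The congenic lines repeat the strain contrast with the chromosome 13 segment exchanged. D2-13B6 minus B6-13D2 called 20.3% of the 86874 regions, 8.6% positive and 11.8% negative, and shares no library with D2 minus B6. Off chromosome 13, 1531 of 3545 D2-higher regions (43.2%) were called the same way and 333 (9.39%) the opposite way, and of 5579 B6-higher regions 3313 (59.4%) were called the same way and 83 (1.49%) the opposite way. Without D2-13B6 replicate 1, the most distant library, the congenic contrast called 20979 regions instead of 17677, and without B6-13D2 replicate 1 or 2 it called 11224 or 9020. Scaling by library totals raised the positive share of its calls from 42.2% to 54.7%, and its median over all regions from 0.03 to 0.16.

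On chromosome 13 between 65 and 67 Mb, all 299 D2-higher regions were called in the opposite direction, with medians of 3.30 in the parental and -4.31 in the congenic contrast. There the level was high with the D2 segment on either background. The region chr13:65619001-65619178 had 153 and 186 CPM in B6-13D2 and 2.70, 1.49 and 0.702 CPM in D2-13B6, beside 89.5 and 135 CPM in D2 and at most 3.68 CPM in B6. H3K27ac was called higher in D2 at 298 of the 299 regions, with a median of 4.59.

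A direct test of the parental minus the congenic contrast called 2611 regions (3.01%), 1977 positive (2.28%) and 634 negative (0.73%). Off chromosome 13 it called 1520 positive and 604 negative, and 883 of the 9124 parental calls off that chromosome were among them. Leaving out single libraries moved the negative calls from 634 to 1026 without D2-13B6 replicate 1 and to 331, 342 and 408 without B6-13D2 replicate 2, D2 replicate 1 and B6-13D2 replicate 1. Positive calls fell to 1283 without D2 replicate 1.

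The 4 regions with the smallest p of this test off chromosome 13 were chosen for the difference between the contrasts, so their values are a description. In an intron of Vps54, a subunit of the GARP tethering complex, chr11:21256212-21257208 had 4.36, 2.28 and 1.47 CPM in B6 and 32.2 and 21.7 in D2. It had 41.7 and 45.4 CPM in B6-13D2 and 4.5, 4.48 and 3.51 in D2-13B6, so the D2 and B6-13D2 libraries were the high ones. The difference of the contrasts was 6.62 (SE 0.52, adjusted p = 5.68e-23). In an intron of Iqschfp and Schip1, chr3:68525018-68527015 had 4.36, 3.04 and 7.37 CPM in B6, 43.9 and 41.9 in D2, 42.4 and 40.6 in B6-13D2 and 9.89, 12 and 11.9 in D2-13B6 (difference 4.96, SE 0.42, adjusted p = 1.92e-20).

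The region 9.31 kb from Obox6, an oocyte homeobox gene, at chr7:15848989-15851080 had 14.5, 13.7 and 12.5 CPM in B6 and 61.8 and 54.3 in D2. Its levels were 54.7 and 50.1 CPM in B6-13D2 and 8.10, 14.2 and 14.0 CPM in D2-13B6 (difference 4.16, SE 0.36, adjusted p = 6.03e-20). H3K27ac went the other way between the parental lines there, at 39.2 and 44.4 CPM in B6 and 3.33 and 4.09 in D2. Cd59a had low levels in D2 and B6-13D2, at 4.79 and 6.77 CPM in B6-13D2 and 45.0, 35.9 and 22.5 in D2-13B6 (difference -5.44, SE 0.46, adjusted p = 2.55e-20).

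**Figure D5:**
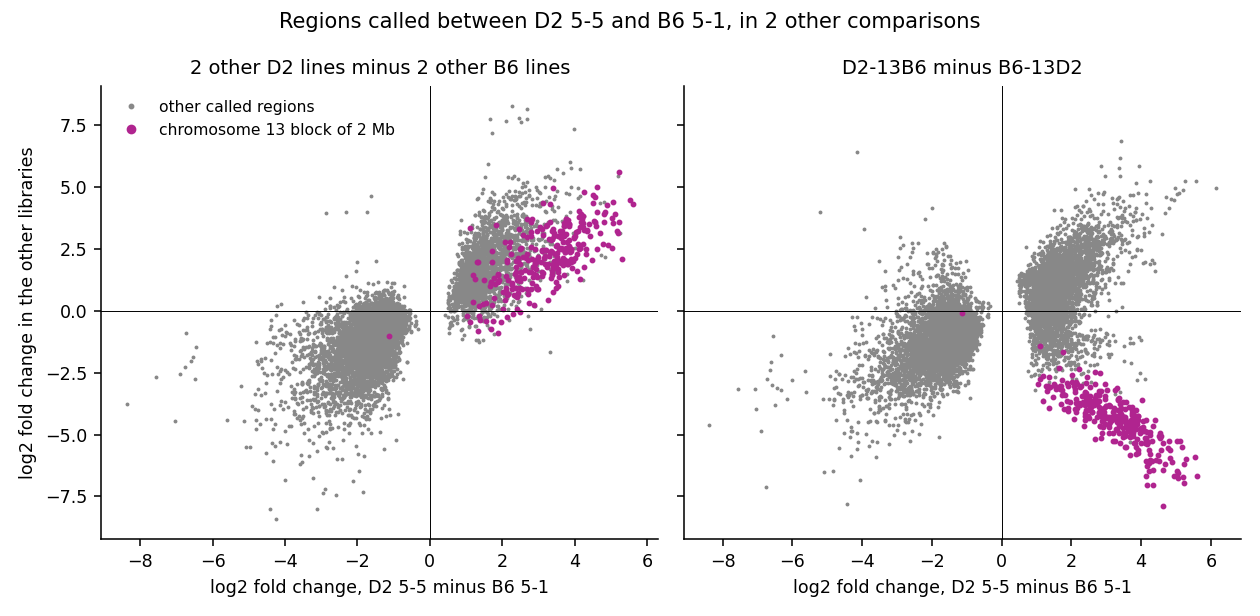
Log2 fold change of H3K9me3 at the regions called between D2 5-5 and B6 5-1 (horizontal axis) against the log2 fold change in the other lines and in D2-13B6 minus B6-13D2, in separate panels with 1 point per region. The regions of chromosome 13 between 65 and 67 Mb are coloured, and in the congenic panel all 299 D2-higher ones lie below 0.

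H3K27ac in D2 5-5 and B6 5-1 was called different in 53945 of 192158 regions (28.1%). At the D2-higher H3K9me3 regions, 1402 of 3853 (36.4%) had H3K27ac called higher in D2 and 786 (20.4%) called lower. At the B6-higher regions, 1292 of 5206 (24.8%) had it higher in D2 and 1518 (29.2%) lower. Regions not called for H3K9me3 had 19.6% and 13.8%. At the B6-higher promoters the shares were 46.6% (90 of 193) higher in D2 and 13.5% (26) lower. At the D2-higher promoters they were 34.2% (164 of 480) higher and 13.3% (64) lower. Scaling H3K27ac by library totals lowered the D2-higher share of its calls from 52.3% to 40.3% and its median over all regions from -0.05 to -0.20.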

How the data were processed

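ChIP-seq counts per region were deposited by the authors as raw whole-number counts with duplicates removed, per the file headers (column names), with no normalization. The submitters' processing notes name Trimmomatic 0.39, HISAT2 2.2.1, MACS 1.4.2, bedtools 2.9.2, edgeR and mm10, without roles; how the region list was made is not given in the sources used here, and region starts were taken as 0-based. The K9 table has 2 further columns whose names match no sample label, which were not used.

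Counts were fitted with edgeR 4.0.16 (quasi-likelihood test, TMM scaling, filterByExpr with a minimum count of 10, Benjamini-Hochberg adjustment over all tested regions) in R 4.3.3. The 10 H3K9me3 libraries of the parental and congenic lines shared 1 fit. The other lines and H3K27ac had fits of their own. CPM values use TMM-scaled totals of the tested regions. Alternatives used DESeq2 1.42.0, other scalings and filters, each library left out in turn, and replicate number as a block. A chi-square test compared replicates: the 1 H3K27ac pair per line with a chi-square below its degrees of freedom was summed, while replicates 2 and 3 of D2, with a ratio of 1.005, were not.

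Named regions were, per direction, the 6 called regions with the smallest p among those with a mean of at least 20 counts and groups that do not overlap (at most 1 per fixed 5 Mb bin and 2 per chromosome, so neighbours on either side of a bin edge can both be named), the 5 at starts of named protein-coding genes, and up to 2 per gene list; then the 4 opposite in the other lines, the 3 highest levels called or not, the 5 windows of 1 Mb with the most calls, and the 4 with the smallest p for parental minus congenic off chromosome 13. The adaptor gene Tradd, which shares its prefix with T cell receptor segments, was left out of that list. The members and lists were chosen with earlier results of these data known. The fit was tested on simulated data. Intervals and floors cover counting error only. Depth was 1573625 to 2012189 counts per library. One region of the early lineage list is counted but not reported here by name.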

Additional observations from a re-analysis of the deposited data

Results flagged for a closer look

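The named regions below are those at which the D2 minus B6 difference of the parental lines differed from D2-13B6 minus B6-13D2 by the test of that difference itself (edgeR, adjusted p under 0.05). Values are the parental minus the congenic log2 fold change. The largest of these was 12.29 (adjusted p = 1.31e-55) at chr13:65619001-65619178, in the exchanged block. Off chromosome 13, positive differences were 6.62 in Vps54, 4.96 in Schip1, 4.16 near Obox6, 4.53 (adjusted p = 4.81e-14) at Vmn2r24, a vomeronasal receptor gene, 2.67 (adjusted p = 4.54e-06) at Mon1b, 2.65 (adjusted p = 7.99e-07) at Sycp1, 2.41 (adjusted p = 0.00481) at Stat3 and 2.11 (adjusted p = 0.000332) at Rem1, within 5 kb of a listed defensin gene. Vmn2r24, Rem1 and Sycp1 were called in opposite directions in the 2 contrasts, at 1.74 and -2.79, 1.20 and -0.91, and 1.68 and -0.97. At Mon1b and Stat3 the congenic contrast did not pass the test.

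Negative differences were -5.44 at Cd59a, -3.21 (adjusted p = 0.00164) at Gm21887 and -2.94 (adjusted p = 5.51e-09) at Mid1 on chromosome X, -1.91 (adjusted p = 0.0135) at Pcdha1, -1.30 (adjusted p = 0.0101) near Ccr1, -1.18 (adjusted p = 8.51e-16) at the start of Sfi1 and -0.76 (adjusted p = 0.00034) at Gm47283 on chromosome Y. The second Sfi1 region had -0.67 (adjusted p = 6.29e-06). The 3 regions with the highest levels, on chromosome 9 beside or over Gm10718, had -0.35, -0.35 and -0.38 (adjusted p = 0.0065, 0.00782 and 0.00484). Near Ccr1 both contrasts were positive, at 3.86 and 5.16.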

How the results depend on the processing

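Of 1155 values of the 93 named regions under alternative settings, 1056 kept direction and side of the threshold, 97 (27 regions) fell below it, 2 rose above it and 0 reversed. Of the gene list counts, 402 stayed within 1.5 times and 198 moved. With DESeq2 the calls were 3720 for D2 minus B6 (1473 D2-higher, 2247 B6-higher, with 26949 adjusted p-values NA), 298 at listed genes, 1237 intergenic B6-higher, 119 promoter D2-higher, 3328 in the other lines (2390 parental calls shared), 5937 congenic, 1044 for parental minus congenic (653 off chromosome 13) and 30359 for H3K27ac. With a mean of at least 20 counts they were 3873 (2014 and 1859), 247 at listed genes, 1010 intergenic B6-higher, 4538 in the other lines (2480 shared), 4376 congenic and 1353 for parental minus congenic (996). Without a filter, 2562 regions and 211 promoters were D2-higher. Listed genes had 339 calls by gene body and 842 within 20 kb.

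Leaving out 1 library at a time gave 4917 to 8110 D2 minus B6 calls (2036 to 2989 D2-higher, 2881 to 5182 B6-higher), 316 to 477 at listed genes, 1593 to 3092 intergenic B6-higher and 169 to 346 promoter D2-higher. Parental calls shared with the other lines were 2943 to 4111 when a parental library was left out and 0 to 4336 over all. The other lines had 0 to 8973 calls (0 without D2 2-9 or without D2 203, 6778 without B6 4-1), the congenic contrast 9020 to 20979, parental minus congenic 1625 to 3389 (1198 to 2871 off chromosome 13) and H3K27ac 29308 to 42689 (32021 without the summed B6 pair). Same-numbered libraries did not all deviate together (r from -0.053 to 0.151), so the numbers were not taken as pairs. With the replicate block the calls were 9490 for D2 minus B6, 14500 congenic, 2125 for parental minus congenic, 14508 over all 6 lines (15525 without the block) and 62706 over 12 H3K27ac libraries (63195 without). The cause of these shifts was not tested. The share called varied with depth, at 4.23% of regions under a mean of 5 counts, 24.7% of those with 20 to 50 and 51.1% of those with 100 or more.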
